A study of Mus musculus with 2 samples.

Results

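The 46 genes described here encode regulators of pre-mRNA splicing and were read from RNA-seq libraries of mouse muscle stem cells, the Pax7-expressing cells that rebuild skeletal muscle fibres. They were chosen by symbol as 12 SR proteins, 15 hnRNPs, 14 tissue splicing regulators and 5 SR protein kinases, and each was found through its Entrez ID among the 24532 gene IDs of the deposited table. A gene's value was the sum of its transcript rows. All 46 reached 10 counts in the higher library, the minimum for a gene to be called measured here, as did 14885 genes in all.

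The study compared 1 wild-type (WT) library with 1 double-knockout (dKO) library, both from male C57BL/6 mice whose sample titles carry the mark 6M. The dKO mice carried Pax7-CreER, a tamoxifen-dependent Cre recombinase driven by the Pax7 gene. They were also Esr2-/-, without estrogen receptor beta, and carried a further Cre-deletable gene, not reported here. The treatment text is the same for both libraries and gives oral tamoxifen at 20 mg/mL on 5 days from 3 months of age. The cells came from limb muscle, were sorted as Vcam1+ after exclusion of CD31+, CD45+ and Sca1+ cells, and were lysed without culture. Depth was 36636680 reads in WT and 43699831 in dKO. For Esr2 itself 71 (WT) and 45 (dKO) reads were counted. The labels do not say which stretch of the gene is missing, so these counts are no check of the genotype. How many mice stand behind each library was not given in the sources used here. With 1 library per group no difference has a replicate check or a test, and every interval below covers counting error only.

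SR proteins bind exonic enhancers through RNA recognition motifs and promote splicing through an arginine- and serine-rich tail, which the CLK and SRPK kinases phosphorylate. The hnRNPs coat nascent RNA and often oppose SR proteins at the same exons. Both families limit their own level by splicing in "poison" exons or retaining introns, which bring an early stop codon and expose the transcript to nonsense-mediated decay. Tissue regulators such as the MBNL, CELF, RBFOX and PTB proteins set the splicing patterns that change as myoblasts become muscle.

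The dKO library had more RNA of every SR protein and every hnRNP gene, while most tissue regulators were level or slightly lower. The hnRNP exceptions under other settings were Hnrnpr, which turned below 0 with library totals or by its main row, and Hnrnpl, which did so with an abundance and length trend removed. Levels are given in CPM, which is reads per 1e6 reads of the TMM-scaled library size, and the log2 ratio is that of dKO CPM + 1 over WT CPM + 1. The median log2 ratio was 0.84 for SR proteins, 0.61 for hnRNPs, −0.13 for tissue regulators and 0.15 for the kinases, against −0.02 for all measured genes. The share of measured genes above 0 was 47.6%, whereas 12 of 12 SR proteins, 15 of 15 hnRNPs, 4 of 14 tissue regulators and 4 of 5 kinases were above 0. On this log2 scale, 2 of the 46 genes were at least 2-fold higher (Tra2a and Srsf2), beside 1.92% of all measured genes, and 0 of 46 were 2-fold lower, beside 4.3%. The pseudocount keeps Srpk3, with 67 and 31 counts, inside that line although its plain CPM ratio was 2.16-fold lower. At least 1.5-fold higher were 9 of 12 SR proteins, 8 of 15 hnRNPs, 1 of 14 tissue regulators and 0 of 5 kinases, beside 8.98% of measured genes. At least 1.5-fold lower was 1 of the 46 genes (the kinase gene Srpk3), beside 13.1%. With library totals the median of all measured genes was −0.24, and 577 of 14885 genes were at least 1.5-fold higher and 3231 lower. In that setting 6 SR proteins, 2 hnRNPs and 0 tissue regulators were 1.5-fold higher. Of the 46 genes, 3 were 1.5-fold lower (Srpk3, Rbm24 and Mbnl1).

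**Figure D1:**
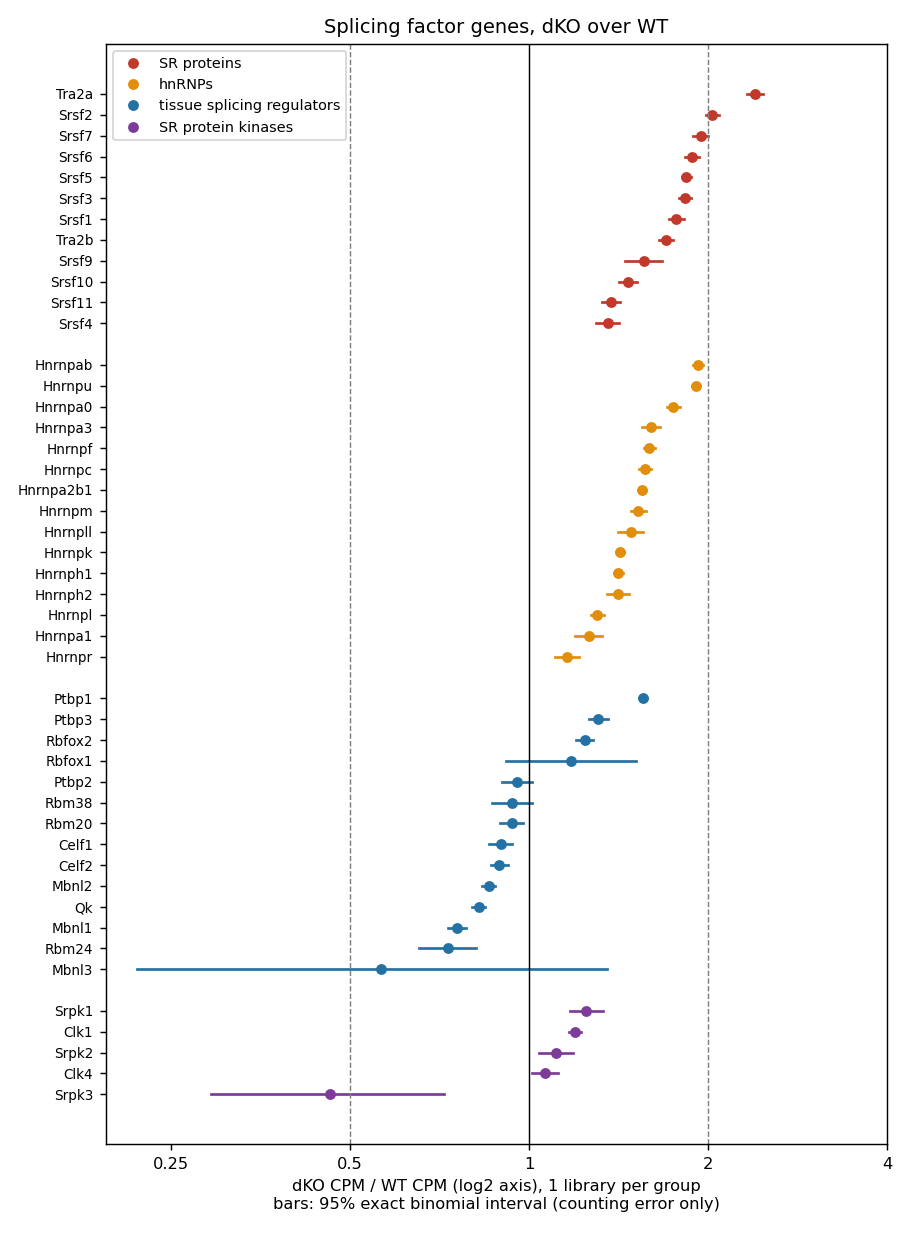
Ratio of dKO to WT CPM for each of the 46 genes (log2 axis, no pseudocount), with 95% exact binomial intervals for counting error and dashed lines at 2-fold in each direction. All 12 SR proteins and 15 hnRNPs lie to the right of 1, whereas 10 of the 14 tissue regulators lie to the left of it.

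Abundant genes in general were higher in dKO. Of the 46 genes, 30 stood in the most abundant eighth of measured genes (mean above 109 CPM), whose median log2 ratio was 0.29 with 74.4% of genes above 0. With a cubic trend on abundance and transcript length removed, the median was 0.48 for SR proteins, 0.24 for hnRNPs, −0.16 for tissue regulators and −0.11 for kinases. On that scale 12 of 12 SR proteins and 14 of 15 hnRNPs were still above 0, beside 50.5% of genes, and the exception was Hnrnpl at −0.04. At least 1.5-fold higher on that scale were 4 SR proteins and 0 hnRNPs, beside 8.84% of genes, and 0 of the 46 genes were 1.5-fold lower, beside 8.9%. The size of the hnRNP difference thus depended on the trend, and the 46 genes also entered its fit.

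**Figure D2:**
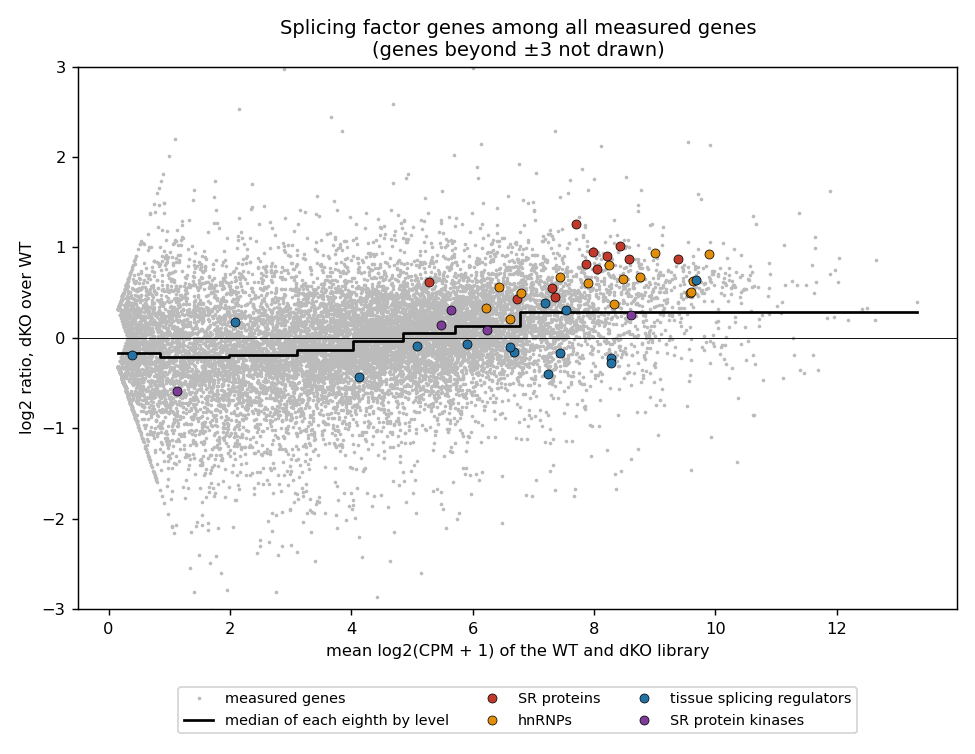
Log2 ratio of dKO over WT against the mean log2(CPM + 1) of both libraries for measured genes (grey), with the 46 genes in colour and the median of each abundance eighth as a black line. The line climbs to 0.29 in the most abundant eighth, and SR proteins lie above it while the abundant MBNL, CELF and QK genes lie below it.

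The libraries also differed in RNA of other cell types. All 8 muscle stem cell markers were present, 4 higher and 4 lower in dKO, with a summed level of 6626 CPM in WT and 8780 CPM in dKO. Sdc4 alone held 2980 CPM of that sum in WT and 4872 CPM in dKO. With the abundance and length trend removed, 3 of the 8 were above 0 and 5 below. Vcam1, the antigen of the sort, was highest by ratio (595 and 1059 CPM, 1.78-fold) and Pax7 lowest (558 and 315 CPM, 1.77-fold lower). Endothelial markers were lower in 11 of 11 genes (summed level 607 CPM in WT and 267 CPM in dKO), and so were 11 of 11 measured immune markers (128 and 34.3 CPM). Fibro-adipogenic progenitor markers were lower in 7 of 8 genes (2197 and 1333 CPM) and myofibre markers in 9 of 10 (1039 and 854 CPM). Of 6 measured glial and neuronal markers 3 were lower (239 and 194 CPM). No endothelial, progenitor or myofibre marker was at 0, the T cell marker Cd3e had 0 and 2 counts, and the neuronal Snap25 had 0 in both libraries. Their part in the values of splicing factors was not tested, and in sorted bulk cells fewer cells of a type and less RNA per cell cannot be told apart.

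Among the classical SR proteins, Srsf2 and Srsf7 were closest to the 2-fold line. Srsf2, an exonic enhancer-binding protein also called SC35 that marks nuclear speckles, had 241 CPM in WT and 489 CPM in dKO, which was 2.03-fold higher (95% interval 1.98 to 2.08). Mfsd11, which overlaps it, had 740 and 651 counts. Srsf7, a zinc-knuckle SR protein, had 181 and 351 CPM and lay just under the line at 1.94-fold (1.89 to 1.998). Srsf2 stood at 0.57 and Srsf7 at 0.60 on the log2 scale once the abundance and length trend was removed, so the order of these neighbours turned.

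Srsf5 was the most abundant SR protein gene per transcript length, with 315 CPM per kb in WT and 583 CPM per kb in dKO (1.84-fold by reads). Srsf6 had 217 CPM in WT and 408 CPM in dKO (1.88-fold, 1.83 to 1.93). Srsf3, the smallest SR protein and a link between splicing and mRNA export, had 283 and 517 CPM (1.83-fold, 1.79 to 1.87). Srsf1, the founding SR protein and a splice-site chooser, had 175 and 309 CPM (1.77-fold, 1.71 to 1.82). These 4 genes lay within 0.1 of each other on the log2 scale.

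Lower in the SR family came Srsf9 with 30.3 and 47.1 CPM (1.56-fold), and Srsf10, a regulator whose activity depends on its phosphorylation, with 130 and 191 CPM (1.47-fold). Srsf11 had 140 and 192 CPM (1.37-fold) and Srsf4 had 90.4 and 123 CPM (1.35-fold, 1.30 to 1.41). The 3 smallest SR ratios belonged to Srsf10, Srsf11 and Srsf4, and their intervals did not reach those of the 6 SR genes named before Srsf9.

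The TRA2 proteins, SR-like activators of purine-rich enhancers, differed from each other. Tra2a had the highest ratio of the 46 genes, with 134 CPM in WT and 320 CPM in dKO (2.40-fold, 2.32 to 2.47), and its log2 ratio was 0.85 with the trend removed. Tra2b had 203 and 345 CPM (1.70-fold, 1.65 to 1.75). Per transcript length, Tra2a made up 56.4% of the pair in WT and 64.3% in dKO.

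The hnRNP genes formed a narrower band. Hnrnpu, a nuclear scaffold protein, had 690 CPM in WT and 1317 CPM in dKO (1.91-fold, 1.88 to 1.94). Hnrnpab, an RNA-binding protein also linked to mRNA transport, had 370 and 711 CPM (1.92-fold, 1.88 to 1.96). Hnrnpa0 followed with 231 and 403 CPM (1.75-fold, 1.70 to 1.79). These 3 hnRNPs stood above the rest of the family, whose ratios ran from 1.16 to 1.60.

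Ratios from 1.41 to 1.60 were found for 9 hnRNP genes. Hnrnpa2b1 had 637 and 986 CPM (1.55-fold), Hnrnpa3 137 and 219 CPM (1.60-fold) and Hnrnpc, a binder of uridine tracts that hides cryptic exons, 285 and 447 CPM (1.57-fold). The G-tract binder Hnrnpf had 342 and 544 CPM (1.59-fold), and its relatives Hnrnph1 (645 and 911 CPM) and Hnrnph2 (92.8 and 131 CPM) were both 1.41-fold higher. Hnrnpm had 192 and 293 CPM (1.53-fold), and Hnrnpk, a KH-domain protein, 652 and 926 CPM (1.42-fold). Hnrnpll, a paralogue of Hnrnpl best known from lymphocytes, had 70.6 and 104 CPM (1.48-fold, 1.41 to 1.55). No ratio among these 9 genes reached that of Hnrnpa0.

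At the lower end, Hnrnpl, a binder of CA repeats, had 283 and 368 CPM (1.30-fold). Hnrnpa1 had 65.7 and 82.8 CPM (1.26-fold), but it has many processed pseudogenes, so its level and ratio are uncertain where reads map to several copies. Hnrnpr had 90.3 and 104 CPM (1.16-fold), and its log2 ratio of 0.21 turned to −0.04 with library totals and to −0.64 by its main row alone.

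Tissue regulators split by family. Ptbp1, the polypyrimidine tract-binding protein that represses muscle and neuronal exons in dividing cells, had 657 CPM in WT and 1021 CPM in dKO (1.55-fold, 1.53 to 1.58) and was the 1 tissue regulator past 1.5-fold. Its paralogue Ptbp3 had 128 and 167 CPM (1.31-fold), and the neuronal Ptbp2 had 60.7 and 57.9 CPM, a ratio of 0.955 whose interval (0.902 to 1.01) included 1. Ptbp1 made up 85.5% of the family per transcript length in WT and 88.9% in dKO.

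The muscleblind genes, whose proteins drive fetal-to-adult splicing in muscle and are sequestered in myotonic dystrophy, were lower for Mbnl1 and Mbnl2. Mbnl1 had 172 CPM in WT and 130 CPM in dKO (1.32-fold lower, 1.28 to 1.37), and Mbnl2 had 335 and 286 CPM (1.17-fold lower, 1.14 to 1.20). Mbnl3 was close to undetected, with 16 and 9 counts and a ratio interval from 0.219 to 1.35, so no direction can be read. Mbnl2 held 69.1% of the family per transcript length in WT and 71.3% in dKO.

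The CELF genes, antagonists of MBNL at several muscle exons, were also lower, by less. Celf1 had 108 and 96.4 CPM (1.12-fold lower, 1.07 to 1.17) and Celf2 183 and 163 CPM (1.12-fold lower, 1.09 to 1.16). By its main row alone Celf1 stood at −1.21 on the log2 scale, the 1 gene of the 46 past 2-fold downward in that setting. Qk, the quaking gene of an RNA-binding protein that activates muscle exons, had 342 and 281 CPM (1.22-fold lower, 1.19 to 1.25). With the abundance and length trend removed, Mbnl1, Mbnl2 and Qk stood at −0.53, −0.50 and −0.55 on the log2 scale.

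Rbfox2, which binds UGCAUG next to muscle exons, had 166 and 205 CPM (1.24-fold higher, 1.20 to 1.28), but its main row alone was lower, at −0.85 on the log2 scale. Its relative Rbfox1, the form of mature muscle and neurons, had 119 and 140 counts and a ratio interval (0.914 to 1.51) that included 1. Rbm24, a muscle-specific splicing activator, had 19.3 and 14.1 CPM (1.37-fold lower, 1.23 to 1.53), an interval that contains that of Mbnl1. Rbm20, the regulator of titin splicing, had 99.9 and 93.4 CPM (1.07-fold lower), and Rbm38, a p53 target, 34.2 and 32.0 CPM (1.07-fold lower, with an interval from 0.991 to 1.16 that included 1).

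Of the kinases, Clk1, Clk4, Srpk1 and Srpk2 had smaller ratios than any of the 12 SR proteins. Clk1 had 356 CPM in WT and 425 CPM in dKO (1.19-fold, 1.17 to 1.22), and Clk4 71.9 and 76.5 CPM (1.06-fold). Srpk1 had 43.7 and 54.5 CPM (1.25-fold) and Srpk2 41.2 and 45.7 CPM (1.11-fold), with reads that cannot be told apart from those of the overlapping Kmt2e (7280 and 5725 counts). Srpk3, the muscle-specific SR kinase, had 67 counts in WT and 31 in dKO (2.16-fold lower, 1.39 to 3.42). Its log2 ratio of −0.59 is smaller than that fold because of the pseudocount, and myofibre markers were lower as well (9 of 10). With the trend removed, Clk1 turned to −0.11 and Clk4 to −0.14 on the log2 scale. With library totals, Clk4 stood at −0.16 and Srpk2 at −0.10, so neither has a direction that held under each scaling. Across the 46 genes the summed level of SR proteins went from 990 to 1836.5 CPM per kb and that of tissue regulators from 535 to 623 CPM per kb. Ptbp1 alone carried the latter direction (215 and 331 CPM per kb), and the other 13 tissue regulators summed to 320.1 CPM per kb in WT and 292 CPM per kb in dKO.

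**Figure D3:**
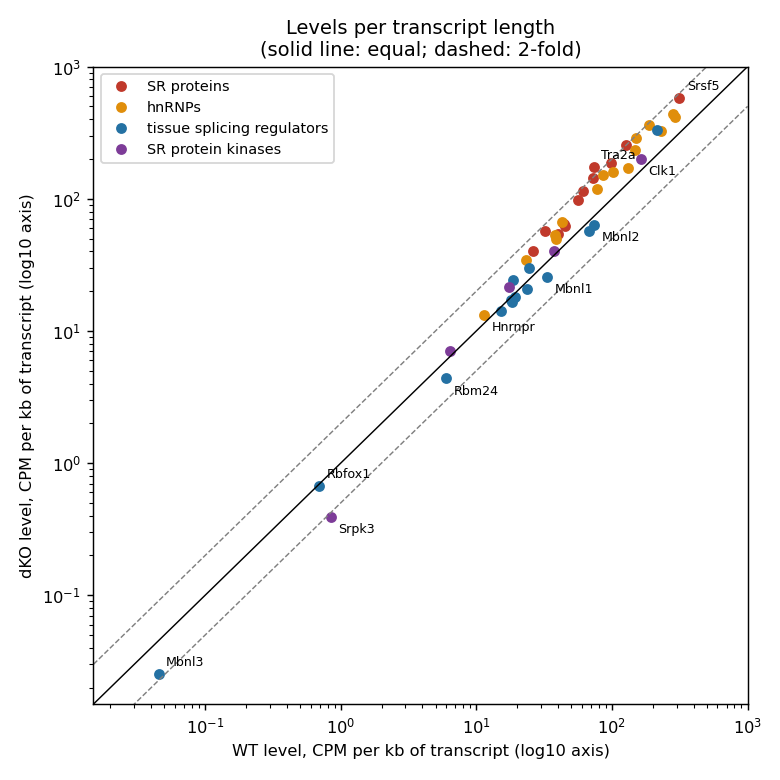
Level of each of the 46 genes in CPM per kb of transcript in WT and dKO (log10 axes), with a solid line of equal levels and dashed lines at 2-fold. SR proteins and hnRNPs lie above the solid line, and Srpk3, Rbm24 and Mbnl1 below it.

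Other genes of the splicing machinery, from lists chosen with earlier results known, were also mostly higher. Of 31 core snRNP genes, 26 were above 0 (47.6% of all measured genes were), 2 were 2-fold higher (1.92% of all) and 0 lower (4.3% of all), with a median of 0.38. Those 2 were Snrpd1, an Sm ring subunit (582 and 1612 counts, 2.77-fold), and U2af1, which reads the AG of the 3′ splice site (82.8 and 174 CPM, 2.10-fold). Of 41 measured other regulators, 33 were above 0, and the 2 past 2-fold were the paraspeckle protein gene Sfpq (2.20-fold) and the cold-induced Rbm3 (2.29-fold). Celf6, with 0 counts in WT and 22 in dKO, stayed inside the line through the pseudocount. The exon junction and decay list had 13 of 15 genes above 0, none past 2-fold and a median of 0.33. Its most abundant genes were Smg1 (−0.18) and Upf1 (0.66). With the trend removed the medians were 0.18, 0.18 and 0.28. With library totals they were 0.13, 0.12 and 0.08, beside −0.24 for all measured genes. In that setting 21 of 31, 26 of 41 and 8 of 15 genes were above 0, beside 30.3% of all measured genes.

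Several of these genes have rows that differ by exactly the length of 1 annotated exon, which lets the reads be set beside an exon. The table gives each row a length and no transcript name, so rows were matched to cassette exons of GENCODE M21 (GRCm38, the assembly behind mm10) by that difference, and the match is by length only. How reads were divided between the rows of a gene was not given in the sources used here. The sequences below are shown because their rows moved, read 5′ to 3′ on the strand of the gene from the GENCODE transcripts. For the 3 exons found only in decay transcripts the print runs from the first base of the exon to the early stop codon in capitals.

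Srsf3 exon of 456 bases, chr17:29039454-29039909, plus strand, to its stop codon: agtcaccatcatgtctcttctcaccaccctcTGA
Srsf7 exon of 460 bases, chr17:80204622-80205081, minus strand, to its stop codon: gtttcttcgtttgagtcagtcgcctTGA
Tra2b exon of 276 bases, chr16:22258986-22259261, minus strand, to its stop codon: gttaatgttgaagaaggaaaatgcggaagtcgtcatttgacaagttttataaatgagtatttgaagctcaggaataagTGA
Clk1 coding exon of 91 bases, chr1:58420121-58420211, minus strand: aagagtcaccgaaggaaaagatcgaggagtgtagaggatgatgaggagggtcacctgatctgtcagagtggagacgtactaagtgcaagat
Ptbp1 coding exon of 78 bases, chr10:79860117-79860194, plus strand: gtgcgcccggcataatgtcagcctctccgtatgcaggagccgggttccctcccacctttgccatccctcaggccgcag
Rbfox2 coding exon of 93 bases, chr15:77105577-77105669, minus strand: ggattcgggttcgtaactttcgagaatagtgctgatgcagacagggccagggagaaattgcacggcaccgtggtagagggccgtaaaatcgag
Rbfox2 coding exon of 40 bases, chr15:77094451-77094490, minus strand: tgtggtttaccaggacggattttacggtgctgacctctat

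The stop codon lies within the first 34 bases of the Srsf3 exon, 28 bases of the Srsf7 exon and 81 bases of the Tra2b exon. Exons of 78 and 93 bases keep the reading frame, while exons of 91 and 40 bases shift it.

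Rows with a poison exon held a smaller share of the reads of Srsf3, Srsf7 and Tra2b in dKO. For Srsf3, the 3041-base row with the exon held 7567 (WT) and 9505 (dKO) counts, and the 2585-base row without it 3750 and 11203. The share of the longer row went from 66.9% (66.0 to 67.7) to 45.9% (45.2 to 46.6), so the higher Srsf3 level lay mostly in the row without the exon, which was 2.99-fold higher against 1.26-fold for the other. For Srsf7, the 2739-base row had 4148 and 5190 counts, and its share against the matched 2279-base row (487 and 2709 counts) went from 89.5% to 65.7%. That 2279-base row also matches a 36-base coding exon, whose share against the 2243-base row went from 38.7% to 74.4%. Of all Srsf7 reads, the 2739-base row held 57.3% in WT and 36.9% in dKO.

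For Tra2b, the 3676-base row had 5816 and 7981 counts and its share against the 3400-base row (896 and 2269 counts) went from 86.7% to 77.9%. Srsf9 had almost no reads in its row with such an exon (0 of 1211 counts in WT, with an upper limit of 0.304%, and 9 in dKO). Srsf1 has rows that differ by an annotated intron of 196 bases (chr11:88049216-88049411), and the row that retains it had 3498 and 3745 counts, against 3510 and 8636 in the spliced row. The retained share went from 49.9% to 30.2%, and the spliced row was 2.46-fold higher while the retained row was 1.07-fold higher.

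These values need the background of the table. Among 93 matched exons found only in decay transcripts, 22.6% lost at least 10 points, and so did 2 of the 4 among splicing factors (Srsf3 and Srsf7). Over all 27 matched exons of 20 splicing factor genes, 6 lost at least 10 points (22.2%, beside 22.1% of 1587 exons) and 6 gained as much (22.2%, beside 19.3%). Of 213 matched retained introns, 23.9% lost at least 10 points. The longest row of a gene lost at least 10 points in 5 of 9 SR protein genes with several rows and gained as much in 0 of 9, beside 19.1% and 18.8% of 4078 genes. The 5 genes were Srsf1, Srsf3, Srsf5, Srsf7 and Tra2b. Among hnRNPs it was 2 of 11 (Hnrnph1 and Hnrnpr), near the background, among tissue regulators 0 of 10 lost and 4 of 10 gained that much, and among kinases 1 of 2 lost it (Clk4).

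**Figure D4:**
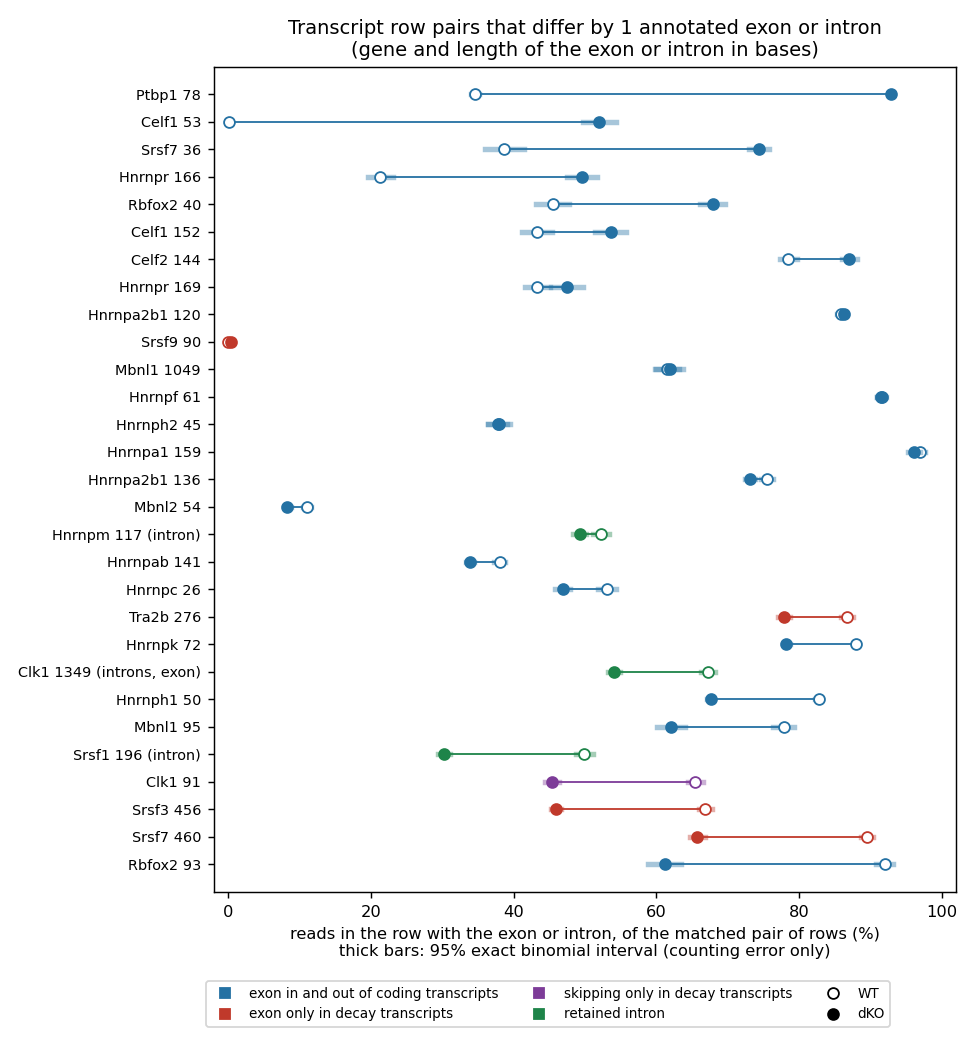
Share of reads in the longer row of each matched pair, in WT (open) and dKO (filled), for exons and introns of splicing factor genes, with 95% exact binomial intervals for counting error. Srsf3 456, Srsf7 460, Clk1 91 and the Srsf1 intron lie lower in dKO, and Ptbp1 78 lies at 34.6% in WT and 92.9% in dKO; the Hnrnph2 pair with 100% in both libraries is not drawn.

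Clk1, whose exon skipping and intron retention are known to control the amount of active kinase, had 3 rows. The 1830-base row with the 91-base exon had 5448 counts in WT and 4710 in dKO, while the 1739-base row without it had 2876 and 5658. The share with the exon in that pair went from 65.4% (64.4 to 66.5) to 45.4% (44.5 to 46.4), and in GENCODE no transcript that skips the exon is marked protein coding. The 3088-base row, longer than the skipped row by 1349 bases that span the exon with both flanking introns, had 5916 and 6654 counts. Clk1 reads were thus 1.19-fold higher in sum although the row with the exon was 1.16-fold lower.

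Ptbp1 had the widest row difference of the well-counted genes. Its 3030-base row without the 78-base exon had 17135 counts in WT and 2660 in dKO, while the 3108-base row with it had 9065 and 34548. The share with the exon went from 34.6% to 92.9%. The exon lies in the linker between RNA-binding domains, and its inclusion is known to alter how strongly Ptbp1 represses exons. Row shares of Ptbp1 shifted by 58.6 points in all, more than in 94.0% of genes with several rows, where a shift of at least 25 points occurred in 21.6%. Of the 32 splicing factor genes with several rows and at least 100 counts in each library, 6 passed 25 points, a share of 18.8% near that background: Ptbp1, Rbfox1, Hnrnpr, Rbfox2, Celf1 and Srsf7.

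Rbfox2 moved at 2 exons. The 93-base exon, which encodes part of the RNA recognition motif, was in 92.0% of its row pair in WT (1956 against 170 counts) and in 61.2% in dKO (1079 against 684). Of all Rbfox2 reads, the 6469-base row without it held only 2.57% in WT and 8.33% in dKO. The 6562-base row with it held 29.5% and 13.1%, so the pair does not give the share of Rbfox2 RNA without this exon. The 40-base exon of the C-terminal part was in 45.5% in WT and in 67.9% in dKO. For Celf1, the 7813-base row with a 53-base exon had 2 counts in WT and 957 in dKO against 2072 and 884 in its partner. Rbfox1 had 94 counts in a 4085-base row in WT and 0 of 140 in dKO, with an upper limit of 2.60%. The part of the division of reads between rows in these values was not tested.

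Differences were also seen in rows of hnRNPs and other tissue regulators, in both directions. The exon shares here are of the reads in matched row pairs, not of all reads of a gene. Hnrnpr had 21.3% in WT and 49.6% in dKO in the row with a 166-base exon, against its 7841-base row. Hnrnph1 had 82.7% in WT and 67.6% in dKO in the row with a 50-base exon. Hnrnpk had 88.0% and 78.2% in the rows with a 72-base exon. Mbnl1 had 77.9% and 62.1% with a 95-base exon, while its 1049-base exon was level (61.5% and 61.9%). Of all Mbnl1 reads, the 5655-base row with the 95-base exon held 35.6% in WT and 27.3% in dKO. The nuclear localisation exon of 54 bases in Mbnl2 was in 11.1% and 8.29%. Qk rows of 4658, 5437 and 6717 bases held 70.4%, 12.7% and 16.9% of reads in WT and 66.8%, 24.7% and 8.49% in dKO.

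**Figure D5:**
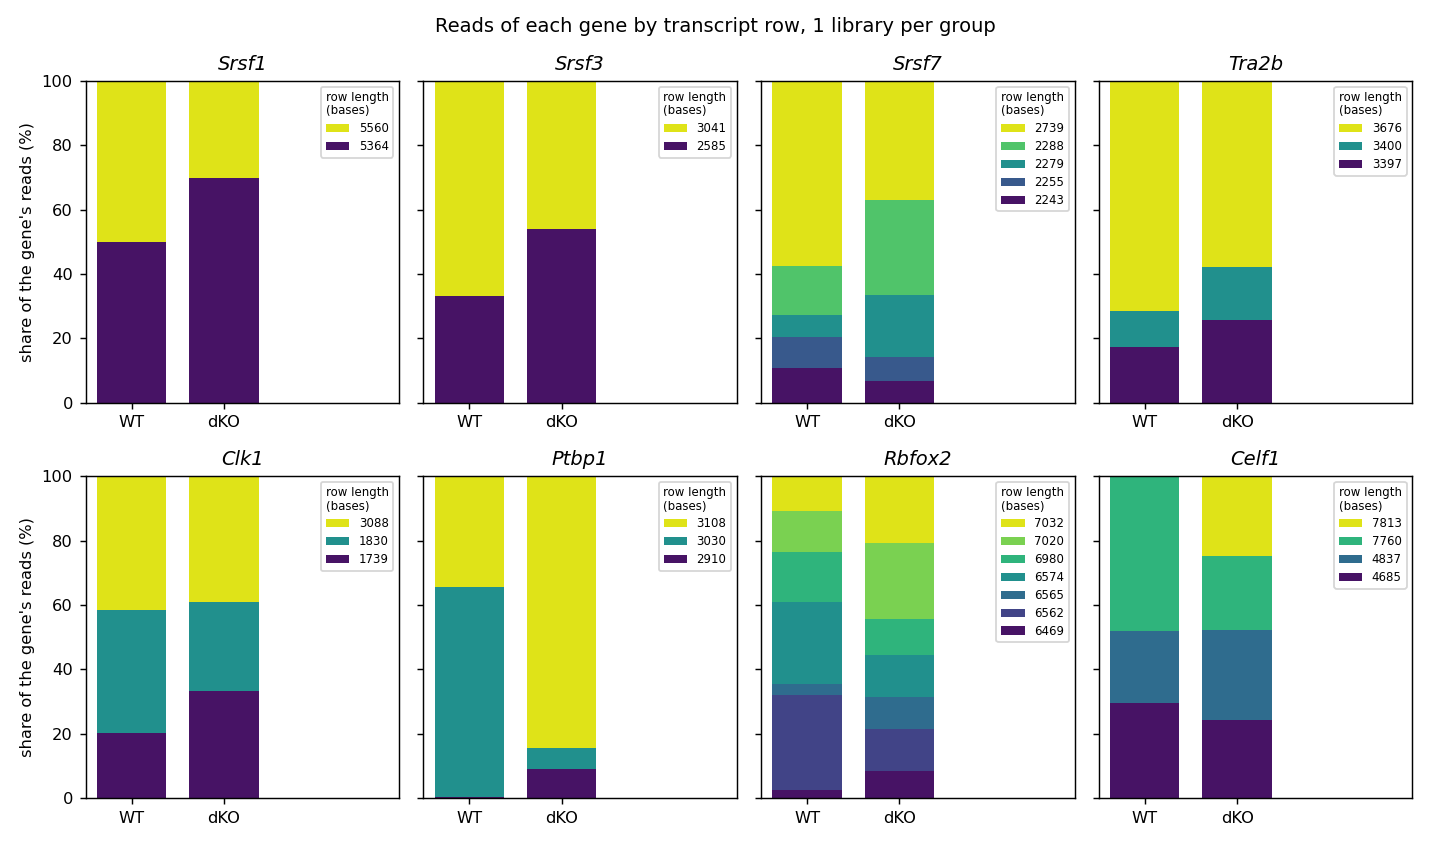
Share of each gene's reads by transcript row, coloured from the shortest (dark) to the longest (yellow) row with reads, in WT and dKO for 8 genes. The longest row is smaller in dKO for Srsf1, Srsf3, Srsf7 and Tra2b, and larger for Ptbp1, Rbfox2 and Celf1.

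Promoters were read for 41 of the 46 genes, 61 start sites in all, as the 250 bases before each start site (RefSeq, GRCm38.p6), on both strands for 8 short motifs. None of these motifs contains another. The GC box GGGCGG was in 93.3% of 15 SR protein promoters, 69.6% of 23 hnRNP promoters and 41.2% of 17 tissue regulator promoters, beside 32.7% of all promoters and 55.3% of those of measured genes. The ETS core CCGGAA was in 53.3%, 26.1% and 5.88% of these groups (12.03% of all promoters and 19.9% of those of measured genes). The CRE core TGACGT was in 33.3%, 21.7% and 0 of 17 (6.47% and 9.32%), and the CCAAT box CCAAT in 26.7%, 69.6% and 17.6% (33.8% and 34.9%). The E-box CACGTG was in 0 of 15 SR protein and 2 of 23 hnRNP promoters (6.02% and 7.83%). TATAAA was in 2 SR, 1 hnRNP and 2 tissue regulator promoters (12.4% and 6.89%), the YY1 core AAGATGG in 0, 0 and 2 (4.49% and 4.15%) and the NRF1 half-site GCGCATG in 2, 1 and 0 (3.24% and 5.11%). A match describes these letters only. The promoters of the 2 genes past 2-fold are shown with each motif found in capitals. Each belongs to a start site inside the annotated span of its gene.

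Srsf2, chr11:116853095-116853344, minus strand: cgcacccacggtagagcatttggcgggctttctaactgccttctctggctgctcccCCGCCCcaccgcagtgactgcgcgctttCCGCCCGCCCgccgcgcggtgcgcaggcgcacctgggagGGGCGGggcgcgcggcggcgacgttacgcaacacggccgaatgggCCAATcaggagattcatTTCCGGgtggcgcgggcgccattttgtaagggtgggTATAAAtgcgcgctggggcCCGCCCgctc
Tra2a, chr6:49264053-49264302, minus strand: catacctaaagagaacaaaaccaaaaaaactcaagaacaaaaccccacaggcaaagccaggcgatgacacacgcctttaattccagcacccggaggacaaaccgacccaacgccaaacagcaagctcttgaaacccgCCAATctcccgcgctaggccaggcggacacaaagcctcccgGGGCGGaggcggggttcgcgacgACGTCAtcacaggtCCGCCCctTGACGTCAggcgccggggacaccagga

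The Srsf2 promoter held 5 GC boxes, of which 2 overlap, 1 CCAAT box, 1 ETS core and a TATA box. The Tra2a promoter held 2 GC boxes, 1 CCAAT box and 3 CRE cores, of which 2 overlap on opposite strands.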

How the data were processed

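RNA-seq was made from sorted muscle stem cells, 1 WT and 1 dKO library. The authors deposited 1 table of whole-number read counts, in 36780 rows, and per the file headers each row names a gene by Entrez ID and gives a length. The tools TopHat2 2.0.9, bedtools and edgeR and the build mm10 stand in the submitters' processing notes, with no role. The counting rule, annotation and strandedness were not given in the sources used here. Totals were 36636680 (WT) and 43699831 (dKO) reads. Without a stated strand setting, reads of overlapping genes cannot be told apart; 12 of the 46 genes overlap another gene of the table.

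Rows were summed per gene, and 24462 of 24532 gene IDs had a symbol in RefSeq (GRCm38.p6). TMM scaling in edgeR 4.0.16 gave factors of 1.09 (WT) and 0.916 (dKO). Log2 ratios used a pseudocount of 1 CPM, folds none, with exact conditional binomial (Clopper-Pearson) 95% intervals. These cover counting error only, because each group has 1 library. Amplified reads are not independent molecules, so the intervals may be too narrow even for counting error. With 1 library per group no test across genes was possible, and a size rule (2-fold, at least 10 counts in the higher library) was used. The scaling, the 2-fold rule and the intervals were tested on simulated counts that held counting error only. The matching of rows to exons, the trend removal and the motif search were not tested in this way. The 46 members and all lists were chosen with earlier results of these data known. All members are named; of other splicing lists, the genes past 2-fold (at most 4), otherwise the 2 most abundant, were named. The row pairs described and Celf6 were chosen after their values were seen. Row shares used genes with at least 100 counts in each library. Alternatives were median-ratio scaling (DESeq2 1.42.0), library totals, pseudocounts of 0.1 and 5, the main row of a gene, other count minimums and fold lines, the mean, reads not divided by length, and a cubic trend on abundance and length.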

Additional observations from a re-analysis of the deposited data

How the results depend on the processing

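No paired analysis was possible because each group has 1 library. Library totals moved the median of all measured genes from −0.02 to −0.24 on the log2 scale. With library totals the group medians were 0.59 (SR proteins), 0.35 (hnRNPs), −0.34 (tissue regulators), −0.10 (kinases) and 0.22 (all 46). By the main row of a gene the medians were 0.54 for SR proteins, 0.51 for hnRNPs and 0.31 for all 46. With the trend removed they were 0.48, 0.24 and 0.23, and −0.11 for the kinases. As means of members they were 0.79 for SR proteins, 0.042 for the kinases and 0.39 for all 46. The kinase median thus has no stable sign, whereas SR proteins and hnRNPs stayed above 0 and tissue regulators below 0 under each of these alternatives. The 2 genes past 2-fold upward became 18 at 1.5-fold, 0 at 4-fold, 1 with library totals, 6 by the main row and 0 with the trend removed. The count past 2-fold downward was 0, and it became 1 at 1.5-fold (Srpk3) and 1 by the main row (Celf1). Over all 14885 measured genes, 286 were past 2-fold upward and 1336 past 1.5-fold, while 640 were past 2-fold downward and 1955 past 1.5-fold. Past 2-fold upward were 130 of all measured genes with library totals and 309 with the trend removed. By the main row, 474 of 14861 genes were past 2-fold upward and 936 downward. The share of Ptbp1 in its family differed by 3.41 points per length and 4.23 points by reads. Single genes changed sign in 4 cases with library totals (Hnrnpr, Rbfox1, Clk4 and Srpk2), in 3 by the main row (Hnrnpr, Rbfox2 and Clk4) and in 4 with the trend removed (Hnrnpl, Mbnl3, Clk1 and Clk4). Of the 32 members with several rows, the longest row lost at least 10 points in 8 (25%) and gained as much in 4 (12.5%). Over all 4078 such genes the shares were 19.1% and 18.8%. The count of 8 was also 8 at a minimum of 500 counts, an alternative chosen after seeing the data. The cause of these differences was not tested. Low counts limit Mbnl3, Rbfox1 and Srpk3, and with a pseudocount of 0.1 CPM Srpk3 stood at −1.02 on the log2 scale.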
